A study of Mus musculus with 60 samples.

Results

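The genes described here are those that make cholesterol, move it into and out of the cell, and control its synthesis. They were chosen by symbol from textbook knowledge of the pathway, with earlier results of these data known. The 31 genes fall in 5 steps. There are 8 of the mevalonate pathway, 3 that make and close squalene and 8 of the sterol tail. The SREBP control system has 5, and uptake and export 7. The array lists a probe set with a single gene symbol for 29 of the 31 and for 19938 symbols in all. Acat2 and Soat1 had no such probe set and are not analysed here, which leaves 7 mevalonate genes and 6 uptake and export genes. Where a gene had several, the brightest stood for it, as with Idi1 and Fdft1.

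RNA was measured on 60 Affymetrix arrays of R1, an established mouse embryonic stem cell line that was grown on feeder cells and then freed of them. Undifferentiated cells were exposed for 6 h, and each of 20 groups has 3 arrays. Doses were limited by the IC10 (the concentration that cost 10% of viability), by solubility or by a ceiling of 1 mM, whichever came first. Every group, the control included, received the solvent DMSO at 0.1%.

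The labels class 10 compounds as teratogens. These were (-)-d-penicillamine, Dimethadione, Fluconazole, Topiramate and VPA (valproic acid) at 1 mM, (+/-)-Thalidomide at 0.35 mM, All trans retinoic acid at 0.024 mM, Dexamethazone (dexamethasone below) at 0.1 mM, Methotrexate at 0.028 µM, and 5-azacytidine (azacitidine), whose dose stands as 0.23 µM in the titles and as 23 µM in the treatment field. The 9 non-teratogens were Chlorthalidone, Hydrochlorothiazide, Paracetamol and Sulfasalazine at 1 mM, Clozapine at 0.028 mM, Glybenclamide at 0.37 mM, Loratadine at 0.043 mM, Metoclopramide at 0.17 mM and Ondansetron at 0.054 mM. DMSO alone was the control. The compounds were therefore given at different doses, and differences between compounds are differences between those treatments.

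Cholesterol is built from acetyl-CoA through mevalonate, isoprenoids and squalene, and a chain of sterol-modifying enzymes then turns lanosterol into cholesterol. When the membrane of the endoplasmic reticulum runs low in cholesterol, the escort protein SCAP carries the precursors of the SREBP transcription factors to the Golgi, where they are cut, and the freed factors raise transcription of most synthesis genes. INSIG proteins hold SCAP back when sterols are plentiful, and INSIG1 is itself an SREBP target. Liver X receptors, activated by oxysterols, raise the exporters ABCA1 and ABCG1 and the ubiquitin ligase MYLIP.

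Values are log2 signals, so a difference of 1 is a doubling, and they can be compared between groups for 1 probe set but not between genes. A fold change is the mean of a compound minus that of DMSO ± the SE of a linear model (limma) over all arrays. A gene is called when its p, adjusted by Benjamini and Hochberg over all 21789 single-symbol probe sets, is under 0.05. The medians of the arrays lay between 7.58 and 7.79. The interquartile range was lowest on hydrochlorothiazide replicates 1 and 2 (2.97 and 2.99) and dexamethasone replicate 3 (2.998), against 3.31 at the highest. All 12 stem cell markers lay above the median signal of the array, and 9 of 14 fibroblast markers did; the array has no true zero. The summed log2 signal of the fibroblast markers lay between 112.4 and 116.4 with penicillamine, the widest range, and between 112.7 and 113.9 in DMSO. In bulk RNA, fewer cells of a type and less RNA per cell cannot be told apart. The labels call the arrays triplicates without saying that they are separate cultures, so the p-values measure the spread between these arrays, which may be technical. All contrasts with DMSO share the same 3 DMSO arrays.

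Promoter windows were looked at because many of the genes moved together. RefSeq's promoter table (GRCm38.p6) matched 25 of the 31 genes, in 33 windows of 250 bases before an annotated start. The letters TCACNCCAC, a classical form of the sterol regulatory element that SREBP binds, were searched on both strands, as were CCAAT, the core of the NF-Y site, and GGGCGG, the core of the SP1 site. None of these can overlap CCAAT in full, and partial overlaps were allowed. CCAAT stood in 23 of the 33 windows (69.7%), against 33.8% of all 32851 windows. It stood in 15 of the 19 windows of synthesis genes and in 8 of the 14 of other members. GGGCGG stood in 25 of the 33 windows (75.8%), against 32.7% of all. TCACNCCAC stood in 1 of the 33, against 1.05% of all. The windows of 4 genes are shown as examples. They are Hmgcs1, the only one with the sterol element, Msmo1 and Insig1, the genes with the largest rises, and Abca1, an exporter gene that fell. The Abca1 window has no CCAAT, nor have those of Acat2 and Scap, while that of Mylip has 3. A link between these letters and the direction of change was not tested. Capitals mark TCACNCCAC and CCAAT on either strand (ATTGG is CCAAT on the other strand), and each window reads 5′ to 3′ toward the start of the gene. A match is a description of letters, not of binding.
Hmgcs1, chr13:119690101-119690350, plus strand: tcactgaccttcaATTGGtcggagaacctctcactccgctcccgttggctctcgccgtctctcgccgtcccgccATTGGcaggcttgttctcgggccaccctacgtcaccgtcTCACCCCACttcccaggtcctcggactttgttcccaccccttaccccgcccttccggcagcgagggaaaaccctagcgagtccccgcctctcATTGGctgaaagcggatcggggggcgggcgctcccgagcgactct
Msmo1, chr8:64733579-64733828, minus strand: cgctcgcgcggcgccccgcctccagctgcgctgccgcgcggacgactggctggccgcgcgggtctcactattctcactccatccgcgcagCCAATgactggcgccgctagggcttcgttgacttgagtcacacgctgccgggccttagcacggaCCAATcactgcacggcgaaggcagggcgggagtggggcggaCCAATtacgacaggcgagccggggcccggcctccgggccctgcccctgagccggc
Insig1, chr5:28071162-28071411, plus strand: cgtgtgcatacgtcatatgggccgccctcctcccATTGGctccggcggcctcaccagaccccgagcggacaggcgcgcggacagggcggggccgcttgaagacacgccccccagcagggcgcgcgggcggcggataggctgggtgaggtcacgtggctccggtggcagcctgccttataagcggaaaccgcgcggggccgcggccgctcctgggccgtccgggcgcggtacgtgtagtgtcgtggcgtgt
Abca1, chr4:53159896-53160145, minus strand: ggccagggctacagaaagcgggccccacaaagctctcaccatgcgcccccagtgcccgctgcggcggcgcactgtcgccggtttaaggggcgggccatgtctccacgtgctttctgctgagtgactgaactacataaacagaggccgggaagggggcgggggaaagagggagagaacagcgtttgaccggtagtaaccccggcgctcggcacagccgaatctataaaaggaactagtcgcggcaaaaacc
In the Hmgcs1 window the sterol element lies 137 to 129 bases before the start, with 2 of the 3 CCAAT matches upstream of it and 1 downstream.

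Across the 19 compounds, 5 changed many of the genes and 8 changed none that passed the test. Loratadine, an antihistamine, raised 21 of the 29 genes and lowered 3, while of all probe sets 10.9% rose and 8.26% fell. With clozapine, an antipsychotic, 18 rose and none fell, while of all probe sets 1.1% rose and 0.211% fell. VPA, an antiepileptic that inhibits histone deacetylases, raised 15 and lowered 2 (15.5% and 11% of all). Dexamethasone, a glucocorticoid, raised 14 and lowered 2 (1.51% and 4.74% of all). Glybenclamide, a sulfonylurea, raised 11 and lowered none (6.79% and 2.75% of all).

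The median log2 fold change of the 29 genes was 0.49 with loratadine, 0.34 with clozapine, 0.19 with dexamethasone, 0.19 with VPA and 0.15 with glybenclamide. Over all probe sets the medians lay between -0.04 and -0.01 in these 5 contrasts. Among probe sets at or above the median signal, where all 29 genes lie, they lay between -0.06 (dexamethasone) and 0.03 (glybenclamide). All 3 arrays lay above all 3 DMSO arrays for 22 of the 29 genes with loratadine and for 22 with clozapine, against 19.1% and 10.1% of all probe sets. The share of the 29 genes that rose was above that of all probe sets in each of these 5 contrasts. The shares that fell were near those of all probe sets. Of the 29, 3 fell with loratadine (8.26% of all), 2 with dexamethasone (4.74%) and 2 with VPA (11%). None fell with clozapine (0.211%) or glybenclamide (2.75%). The markers moved as well. With dexamethasone 2 of the 12 stem cell markers and 2 of the 14 fibroblast markers fell and none rose, and the summed log2 signal of the stem cell markers lay between 142.9 and 145.1, against 144.9 to 145.5 in DMSO. With loratadine 2 stem cell markers rose and 1 fell, and 2 fibroblast markers rose and 3 fell. With clozapine 1 stem cell marker rose, and with glybenclamide 1 fibroblast marker fell. The part of these shifts in the results was not tested.

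**Figure D1:**
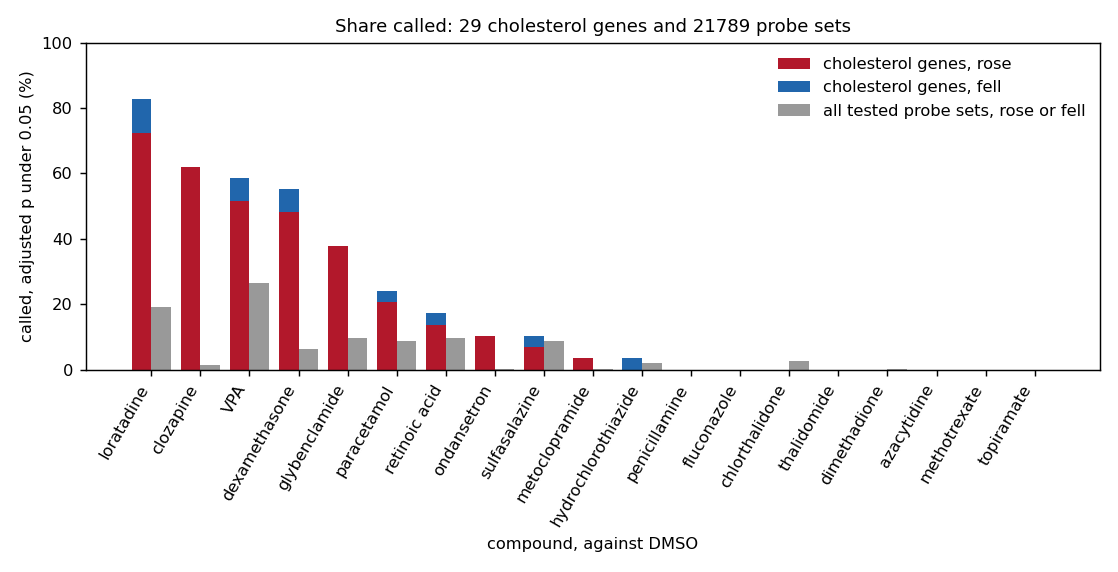
Percent of genes called (vertical axis, adjusted p under 0.05) for each compound against DMSO (horizontal axis): coloured bars are the 29 measured cholesterol genes, stacked by direction, and grey bars all 21789 probe sets. The coloured bar stands for 18 of 29 genes with clozapine.

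The other compounds with calls changed few of the genes. Paracetamol raised 6 and lowered 1 (4.61% of all probe sets rose and 4.15% fell), retinoic acid raised 4 and lowered 1 (5.9% and 3.92%), and sulfasalazine raised 2 and lowered 1 (5.4% and 3.5%). Ondansetron raised 3 and lowered none (0.289% and 0.0413%), metoclopramide raised 1 and lowered none (0.184% and 0.0138%), and hydrochlorothiazide raised none and lowered 1 (0.303% and 1.87%). The shares with sulfasalazine, 2 and 1 of 29, are near those of all probe sets, and so is the share that fell with retinoic acid and paracetamol. Leaving out 1 array changed the smaller counts. Retinoic acid called 1 member without DMSO replicate 1, paracetamol 3 without its own replicate 2 and ondansetron 0 without its own replicate 2. Hydrochlorothiazide called 6, all lower, without its own replicate 3 and 0 without either of its other arrays, and metoclopramide called 0 without DMSO replicate 2. Of the larger counts, that of glybenclamide fell to 7 without DMSO replicate 2.

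**Figure D2:**
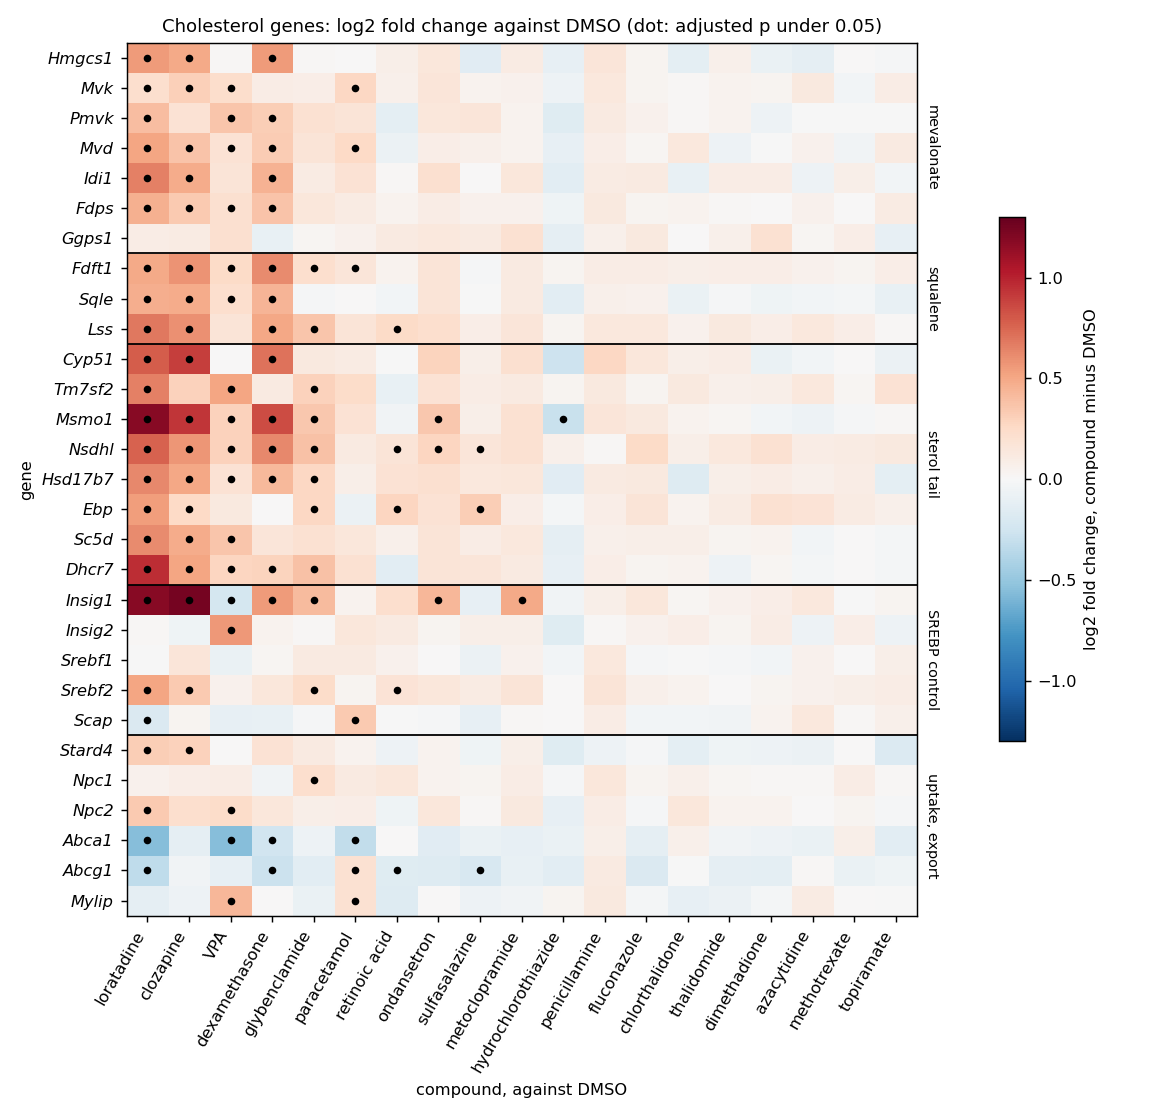
Log2 fold change against DMSO (colour) of the 29 genes (rows, grouped by step) for the 19 compounds (columns); a dot marks an adjusted p under 0.05. Red fills most synthesis rows with loratadine, clozapine and dexamethasone, while Ggps1 and Srebf1 carry no dot in any column.

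The mevalonate genes turn acetyl-CoA units into isoprenoids. Of the 7 measured, 6 rose with loratadine, 5 each with clozapine and dexamethasone, 4 with VPA, 2 with paracetamol and none with glybenclamide. None fell with any compound. Of all probe sets 10.9% rose with loratadine, 1.1% with clozapine, 1.51% with dexamethasone, 15.5% with VPA, 4.61% with paracetamol and 6.79% with glybenclamide. Hmgcs1, the synthase that makes HMG-CoA (probe set 10412466), read 11.81, 11.69 and 11.71 with loratadine, 11.66, 11.71 and 11.68 with clozapine and 11.80, 11.73 and 11.68 with dexamethasone, against 11.14, 11.20 and 11.22 in DMSO. All 9 of these compound arrays lay above the DMSO arrays. The fold changes were 0.55 ± 0.051, 0.50 ± 0.051 and 0.55 ± 0.051 in that order. With VPA it read 11.21, 11.16 and 11.22, within the range of DMSO but for 1 array, a fold change of 0.01 ± 0.051 (adjusted p = 0.91, limma).

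Mvd, the decarboxylase that makes isopentenyl diphosphate, was called in 5 compounds. Its signal was 10.49, 10.59 and 10.56 with loratadine, 10.40, 10.39 and 10.44 with clozapine, 10.34, 10.38 and 10.38 with dexamethasone, 10.32, 10.36 and 10.18 with paracetamol and 10.24, 10.18 and 10.24 with VPA, against 9.97, 10.00 and 10.13 in DMSO. No array of the 5 overlapped DMSO. The rise was 0.51 ± 0.070 with loratadine and 0.19 ± 0.070 with VPA, the largest and the smallest of the 5. The VPA call was lost without any array of the 6 but DMSO replicate 3, and that of paracetamol without DMSO replicate 1 or 2 or paracetamol replicate 1 or 2 (adjusted p between 0.0569 and 0.171, limma).

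Mvk, the kinase that phosphorylates mevalonate, and Pmvk, the kinase of the next step, rose in different sets of compounds. Mvk read 10.03, 10.10 and 9.92 with paracetamol, against 9.76, 9.68 and 9.80 in DMSO, a rise of 0.27 ± 0.060 with no overlap. It also rose with clozapine (0.31 ± 0.060), VPA (0.23 ± 0.060) and loratadine (0.22 ± 0.060). Pmvk read 9.15, 9.02 and 9.08 with VPA, against 8.67, 8.81 and 8.68 in DMSO, and rose by 0.36 ± 0.075. It rose with loratadine (0.40 ± 0.075) and dexamethasone (0.32 ± 0.075) as well, and all 9 arrays lay above DMSO. Single arrays decided the calls of Mvk with loratadine (DMSO replicate 2 or loratadine replicate 3; adjusted p = 0.054 without it, limma) and of Pmvk with dexamethasone (replicate 3 of either group; up to 0.0727).

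Idi1, which isomerises the isoprenoid unit, rose with loratadine (0.66 ± 0.069), clozapine (0.49 ± 0.069) and dexamethasone (0.45 ± 0.069). A dimmer Idi1 probe set gave 0.64, 0.50 and 0.43 in the same 3 contrasts. Fdps, which joins the units into farnesyl diphosphate, rose with loratadine (0.46 ± 0.058), dexamethasone (0.37 ± 0.058), clozapine (0.34 ± 0.058) and VPA (0.21 ± 0.058). Ggps1 makes the geranylgeranyl diphosphate used to anchor proteins in membranes, a branch off the sterol path. It was called in no compound, and its fold change was 0.10 ± 0.082 with loratadine and 0.11 ± 0.082 with clozapine.

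The squalene genes lead from farnesyl diphosphate to lanosterol. All 3 rose with loratadine, clozapine and dexamethasone, 2 with VPA and glybenclamide and 1 with paracetamol. The shares of all probe sets that rose were 10.9%, 1.1%, 1.51%, 15.5%, 6.79% and 4.61% in that order. Fdft1, squalene synthase (probe set 10420730), read 12.51, 12.31 and 12.42 with dexamethasone, 12.36, 12.33 and 12.47 with clozapine, 12.30, 12.24 and 12.33 with loratadine and 12.03, 12.10 and 12.01 with VPA, against 11.84, 11.73 and 11.83 in DMSO. These arrays all lay above DMSO. The rise with dexamethasone, 0.61 ± 0.049, had the smallest p of all 21789 probe sets in that contrast (adjusted p = 2.52e-12, limma). The rise was 0.58 ± 0.049 with clozapine and 0.49 ± 0.049 with loratadine. A second Fdft1 probe set gave 0.49, 0.65 and 0.52 in the same 3 contrasts. Smaller rises were called with VPA (0.25 ± 0.049), glybenclamide (0.22 ± 0.049, arrays 11.98, 12.08 and 11.99) and paracetamol (0.16 ± 0.049, arrays 11.94, 11.99 and 11.95). The paracetamol call was lost without DMSO replicate 2 or paracetamol replicate 2 or 3 (adjusted p up to 0.172, limma).

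Lss, which closes oxidised squalene into the sterol rings, read 10.93, 10.87 and 10.94 with loratadine, 10.82, 10.71 and 10.92 with clozapine, 10.87, 10.81 and 10.50 with dexamethasone, 10.62, 10.52 and 10.61 with glybenclamide and 10.53, 10.52 and 10.38 with retinoic acid, against 10.18, 10.21 and 10.29 in DMSO. All 15 arrays lay above DMSO, though dexamethasone replicate 3 stood apart from the other two. The rises were 0.69 ± 0.071, 0.59 ± 0.071, 0.50 ± 0.071, 0.36 ± 0.071 and 0.25 ± 0.071 in that order. The last of these was lost without DMSO replicate 1 or 2 or retinoic acid replicate 1 or 2 (adjusted p up to 0.0834, limma). Sqle, the squalene epoxidase, rose with clozapine (0.48 ± 0.048), loratadine (0.47 ± 0.048), dexamethasone (0.44 ± 0.048) and VPA (0.22 ± 0.048). Glybenclamide left it at -0.01 ± 0.048 (adjusted p = 0.901, limma), while Fdft1 and Lss on either side of it were called.

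The sterol tail strips methyl groups from lanosterol and moves and reduces its double bonds. All 8 genes rose with loratadine, 7 with clozapine, 6 each with VPA and glybenclamide and 5 with dexamethasone. In that order, 10.9%, 1.1%, 15.5%, 6.79% and 1.51% of all probe sets rose. Msmo1, the methylsterol monooxygenase (probe set 10578916), read 11.51, 11.43 and 11.51 with loratadine, 11.22, 11.20 and 11.28 with clozapine and 11.23, 11.06 and 11.14 with dexamethasone, against 10.31, 10.24 and 10.35 in DMSO. These 3 groups lay far above DMSO with no overlap. The rise was 1.18 ± 0.072 with loratadine (adjusted p = 1.12e-17, limma), 0.93 ± 0.072 with clozapine and 0.84 ± 0.072 with dexamethasone. Counted from the top of the 21789 fold changes, Msmo1 ranked 9, 3 and 2 in those contrasts.

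Smaller rises of Msmo1 were called with ondansetron (10.63, 10.68 and 10.65; 0.36 ± 0.072), glybenclamide (10.64, 10.65 and 10.66; 0.35 ± 0.072) and VPA (10.59, 10.61 and 10.60; 0.30 ± 0.072). Each of these 9 arrays lay above DMSO, but the ondansetron call was lost without DMSO replicate 2 or ondansetron replicate 2 (adjusted p = 0.14 and 0.111, limma). With hydrochlorothiazide, a diuretic, Msmo1 read 9.87, 9.89 and 10.26 and was called lower by -0.29 ± 0.072 (adjusted p = 0.0214, limma). The third array lay within the range of DMSO, and the other two are the 2 arrays of lowest interquartile range in that group. The call was lost without either of those 2 or without DMSO replicate 1 or 3 (adjusted p between 0.0683 and 0.313, limma). Without the 3 arrays of lowest interquartile range, a choice made after seeing the data, no member was called.

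Nsdhl, a dehydrogenase of the same demethylation step, was called in 8 compounds, more than any other of the 29 genes. Its DMSO mean, 10.22, was the lowest of the 20 groups. It read 11.09, 10.95 and 10.92 with loratadine, 10.96, 10.76 and 10.80 with dexamethasone, 10.83, 10.82 and 10.72 with clozapine and 10.61, 10.58 and 10.62 with glybenclamide, against 10.15, 10.27 and 10.24 in DMSO. The rises were 0.77 ± 0.052, 0.62 ± 0.052, 0.57 ± 0.052 and 0.38 ± 0.052, and the arrays did not overlap DMSO. It also rose with VPA (0.30 ± 0.052, arrays 10.57, 10.49 and 10.49) and ondansetron (0.27 ± 0.052, arrays 10.51, 10.50 and 10.47). In retinoic acid (arrays 10.40, 10.40 and 10.37) and sulfasalazine (arrays 10.38, 10.41 and 10.35) the rises were 0.17 ± 0.052 and 0.16 ± 0.052. These last 3 calls depended on single arrays: ondansetron on DMSO replicate 1 and its own replicate 2 (adjusted p up to 0.0722 without them, limma), retinoic acid on DMSO replicate 1 and its own replicates 1 and 2 (up to 0.167), and sulfasalazine on every array but DMSO replicate 3 (up to 0.173). Set against the mean of the other 18 compounds in place of DMSO, the value with sulfasalazine was -0.09 (adjusted p = 0.106, limma). That with retinoic acid was -0.079 (adjusted p = 0.146, limma).

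Cyp51, the demethylase of lanosterol and the mammalian relative of the target of azole antifungals, rose in 3 compounds. Its signal was 9.64, 9.48 and 9.65 with clozapine, 9.64, 9.34 and 9.45 with loratadine and 9.51, 9.24 and 9.44 with dexamethasone, against 8.65, 8.56 and 8.85 in DMSO. The rises of 0.90 ± 0.082, 0.79 ± 0.082 and 0.71 ± 0.082 showed no overlap, although the DMSO arrays spread by more than those of most members. With VPA it read 8.65, 8.71 and 8.73, a fold change of 0.01 ± 0.082 (adjusted p = 0.978, limma).

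Dhcr7, the reductase that completes cholesterol, read 10.41, 10.52 and 10.46 with loratadine, 10.03, 9.99 and 10.03 with clozapine and 10.00, 9.79 and 9.87 with glybenclamide, against 9.45, 9.55 and 9.51 in DMSO. None of these arrays overlapped DMSO, and loratadine stood clear of the other compounds. The rises were 0.96 ± 0.077, 0.51 ± 0.077 and 0.38 ± 0.077. It rose as well with dexamethasone (0.29 ± 0.077, arrays 9.79, 9.93 and 9.67) and VPA (0.28 ± 0.077, arrays 9.81, 9.73 and 9.80). The dexamethasone call was lost without DMSO replicate 1 or 3 or dexamethasone replicate 2 (adjusted p up to 0.0849, limma).

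Hsd17b7, a reductase of the demethylation step, and Ebp, the isomerase that shifts the ring double bond, were each called in 5 compounds. Hsd17b7 read 10.04, 9.95 and 10.05 with loratadine, 9.89, 9.80 and 9.98 with clozapine, 9.92, 9.75 and 9.73 with dexamethasone, 9.72, 9.65 and 9.57 with glybenclamide and 9.62, 9.49 and 9.61 with VPA, against 9.34, 9.33 and 9.47 in DMSO. Every one of these arrays lay above DMSO, with rises between 0.19 ± 0.063 (VPA) and 0.63 ± 0.063 (loratadine). Ebp read 9.56, 9.55 and 9.62 with loratadine, 9.38, 9.39 and 9.30 with sulfasalazine, 9.26, 9.24 and 9.44 with retinoic acid, 9.36, 9.23 and 9.32 with glybenclamide and 9.24, 9.27 and 9.37 with clozapine, against 9.05, 8.93 and 9.13 in DMSO. Its rises were 0.54 ± 0.064, 0.32 ± 0.064, 0.28 ± 0.064, 0.27 ± 0.064 and 0.26 ± 0.064, without overlap. It was not called with dexamethasone (0.00 ± 0.064) or VPA (0.13 ± 0.064). The Hsd17b7 call with VPA was lost without replicate 1 of either group, DMSO replicate 2 or VPA replicate 3 (adjusted p up to 0.0875, limma). That of Ebp was lost with clozapine without DMSO replicate 1 or 2 or clozapine replicate 2 or 3 (up to 0.265) and with glybenclamide without DMSO replicate 2 (0.0621).

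Tm7sf2, a sterol reductase, rose with loratadine (0.66 ± 0.091), VPA (0.52 ± 0.091) and glybenclamide (0.30 ± 0.091). It read 8.53, 8.56 and 8.55 with VPA, against 7.94, 8.04 and 8.11 in DMSO. The value with clozapine was 0.30 ± 0.091 (adjusted p = 0.109, limma), and it was the only sterol tail gene not called there. The glybenclamide call was lost without DMSO replicate 1 or 2 or glybenclamide replicate 1 or 3 (adjusted p up to 0.128, limma). Sc5d, the sterol desaturase, rose with loratadine (0.62 ± 0.069), clozapine (0.48 ± 0.069) and VPA (0.36 ± 0.069).

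**Figure D3:**
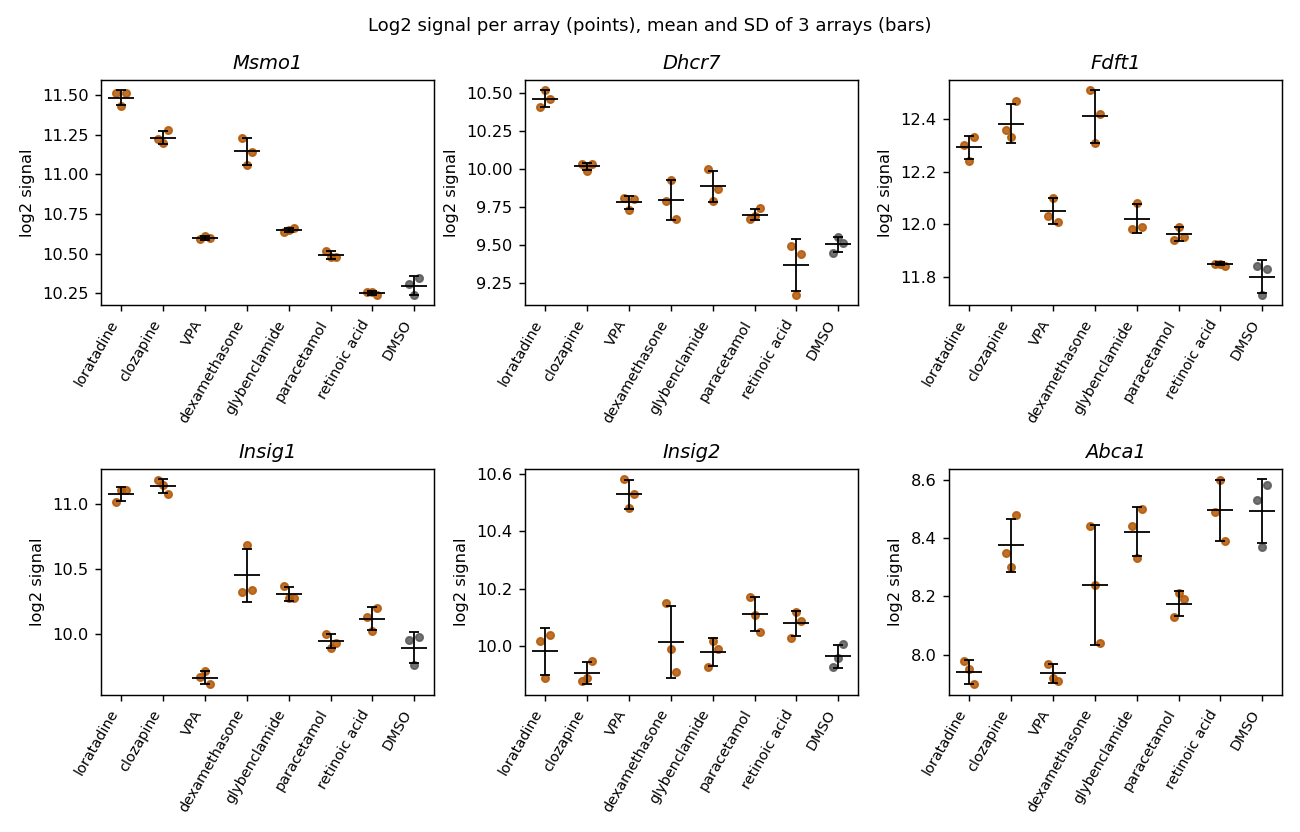
Log2 signal of each array (points) with the mean and SD of 3 arrays (bars) for 6 genes in the 7 compounds with 5 or more calls and in DMSO, at the right of each panel. Msmo1, Dhcr7, Fdft1 and Insig1 stand highest with loratadine, clozapine or dexamethasone, Insig2 with VPA, and Abca1 lies below DMSO with loratadine, VPA and paracetamol.

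The control genes did not all move in the same direction. With loratadine 2 of 5 rose and 1 fell, while of all probe sets 10.9% rose and 8.26% fell. With clozapine and glybenclamide 2 rose (1.1% and 6.79% of all), and with dexamethasone 1 (1.51%). With VPA 1 rose and 1 fell (15.5% and 11% of all), which for 5 genes is near those shares. Insig1, which retains SCAP in the endoplasmic reticulum (probe set 10520362), read 11.19, 11.15 and 11.08 with clozapine and 11.02, 11.11 and 11.11 with loratadine, against 9.95, 9.76 and 9.98 in DMSO. These were the highest groups by a wide margin. With clozapine the rise of 1.25 ± 0.084 (adjusted p = 5.38e-15, limma) was the largest of all 21789 probe sets. With loratadine the rise was 1.19 ± 0.084, rank 8 from the top.

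Insig1 also rose in compounds that changed little else. It read 10.44, 10.35 and 10.36 with metoclopramide and 10.27, 10.48 and 10.23 with ondansetron, both antiemetics, with rises of 0.49 ± 0.084 and 0.43 ± 0.084. These arrays did not overlap DMSO, but the metoclopramide call was lost without DMSO replicate 2 (adjusted p = 0.0602, limma) and the ondansetron call without replicate 2 of either group (0.155 and 0.202). In metoclopramide it was the only member called among 43 probe sets in all, and it ranked 10 from the top. In ondansetron 72 probe sets were called, Msmo1 and Nsdhl among them. Dexamethasone (10.32, 10.69 and 10.34) gave a rise of 0.56 ± 0.084, and glybenclamide (10.37, 10.28 and 10.28) gave 0.42 ± 0.084.

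With VPA, Insig1 was lower and its paralog Insig2 higher. Insig1 read 9.67, 9.71 and 9.61 with VPA and fell by 0.23 ± 0.084 on the log2 scale (adjusted p = 0.0345, limma), all arrays below DMSO. That call was lost without replicate 1 of either group, DMSO replicate 3 or VPA replicate 3 (adjusted p between 0.071 and 0.152, limma), with the value between -0.24 and -0.19. Insig2, which does the same work but is not under the same control, read 10.58, 10.48 and 10.53 with VPA, against 9.93, 9.96 and 10.01 in DMSO. Its rise of 0.56 ± 0.062 (adjusted p = 3.13e-10, limma) showed no overlap, and it was called in no other compound. Beside these results, 8 of the 12 stem cell markers fell with VPA, where their summed log2 signal lay between 141.4 and 141.6, against 144.9 to 145.5 in DMSO. The part of that shift in the VPA results was not tested.

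Srebf2 encodes the SREBP that acts mainly on cholesterol genes. It read 11.21, 11.31 and 11.38 with loratadine, 11.11, 11.09 and 11.20 with clozapine, 11.15, 10.92 and 11.00 with glybenclamide and 11.06, 10.90 and 10.95 with retinoic acid, against 10.79, 10.74 and 10.83 in DMSO. The rises were 0.51 ± 0.060, 0.34 ± 0.060, 0.24 ± 0.060 and 0.18 ± 0.060, and all 12 arrays lay above DMSO. The call was lost with glybenclamide without DMSO replicate 2 or glybenclamide replicate 1 (adjusted p up to 0.113, limma), and with retinoic acid without DMSO replicate 1 or 2 or retinoic acid replicate 1 or 3 (up to 0.226). A probe set that lists Srebf2 among 4 symbols gave -0.08 with loratadine and -0.06 with clozapine. Dexamethasone gave 0.14 ± 0.060 (adjusted p = 0.142, limma) although 13 of the 18 synthesis genes rose with it. Srebf1, whose products act mainly on fatty acid genes, was called in no compound, with -0.01 ± 0.086 with loratadine and 0.16 ± 0.086 with clozapine.

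Scap, the escort of the SREBP precursors, changed in opposite directions with 2 compounds. It read 10.66, 10.67 and 10.59 with paracetamol, an analgesic, and 10.06, 10.12 and 10.13 with loratadine, against 10.26, 10.35 and 10.27 in DMSO. Paracetamol lay above and loratadine below DMSO with no overlap. The changes were 0.34 ± 0.067 (adjusted p = 0.000298, limma) and -0.19 ± 0.067 (adjusted p = 0.0368, limma). The loratadine call was lost without any array of the 6 but DMSO replicate 3 (up to 0.163). Of the 12 stem cell markers 7 fell with paracetamol, where their summed log2 signal lay between 143 and 143.1, against 144.9 to 145.5 in DMSO. Its part in the paracetamol results was not tested.

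The exporters fell in several of the compounds that raised synthesis genes, but neither Abca1 nor Abcg1 was called with clozapine or glybenclamide. Of all probe sets 11% fell with VPA, 8.26% with loratadine, 4.74% with dexamethasone and 4.15% with paracetamol. Abca1, which loads cholesterol onto apolipoproteins, read 7.97, 7.92 and 7.91 with VPA, 7.98, 7.95 and 7.90 with loratadine and 8.13, 8.21 and 8.19 with paracetamol, against 8.53, 8.37 and 8.58 in DMSO. All 9 arrays lay below DMSO. The changes were -0.56 ± 0.075, -0.55 ± 0.075 and -0.32 ± 0.075. With dexamethasone Abca1 read 8.44, 8.24 and 8.04 and was called at -0.25 ± 0.075, but its arrays overlapped those of DMSO, and the call was lost without replicate 3 of either group or DMSO replicate 1 (adjusted p up to 0.264, limma). With clozapine it stood at -0.12 ± 0.075 (adjusted p = 0.689, limma) and with glybenclamide at -0.07 ± 0.075 (adjusted p = 0.586, limma).

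Abcg1, which exports cholesterol to lipoprotein particles, was lower in 4 compounds and higher in 1. It read 8.42, 8.40 and 8.22 with loratadine, 8.41, 8.45 and 8.32 with dexamethasone, 8.44, 8.46 and 8.48 with sulfasalazine and 8.56, 8.43 and 8.55 with retinoic acid, against 8.69, 8.69 and 8.64 in DMSO. The changes were -0.33 ± 0.052, -0.28 ± 0.052, -0.21 ± 0.052 and -0.16 ± 0.052, each with all arrays below DMSO. Abcg1 stood at -0.05 ± 0.052 with clozapine and -0.13 ± 0.052 with glybenclamide, neither called. Paracetamol, at 8.85, 8.93 and 8.83, lay above DMSO and gave 0.19 ± 0.052 (adjusted p = 0.00987, limma). Under paracetamol the 2 exporters thus moved in opposite directions. Single arrays decided the Abcg1 calls with retinoic acid (DMSO replicates 1 and 2, retinoic acid replicate 2; adjusted p up to 0.252 without them, limma), paracetamol (DMSO replicate 3, paracetamol replicate 2; up to 0.0881) and sulfasalazine (DMSO replicate 2; 0.0535).

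Mylip, the ubiquitin ligase that sends lipoprotein receptors for degradation, read 8.97, 9.04 and 9.04 with VPA and 8.77, 8.77 and 8.81 with paracetamol, against 8.59, 8.59 and 8.58 in DMSO. Both groups lay above DMSO, with rises of 0.43 ± 0.062 and 0.20 ± 0.062. Although Mylip, Abca1 and Abcg1 are all liver X receptor targets, Mylip rose and Abca1 fell in both compounds. The Mylip call with paracetamol was lost without any 1 of the 6 arrays (adjusted p between 0.0781 and 0.117, limma), while that with VPA was not lost without any. Npc2, which hands cholesterol over in the lysosome, rose with loratadine (0.34 ± 0.074) and VPA (0.24 ± 0.074), and its partner Npc1 with glybenclamide (0.22 ± 0.059). Stard4, a carrier of sterol between membranes, rose with loratadine (0.32 ± 0.070) and clozapine (0.30 ± 0.070). Leaving out 1 array ended the calls of Npc2 with VPA (DMSO replicate 1; adjusted p = 0.0648, limma), Npc1 with glybenclamide (DMSO replicate 2 or glybenclamide replicate 1; up to 0.126) and Stard4 with clozapine (DMSO replicate 1 or 2 or clozapine replicate 1; up to 0.132).

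Several compounds were then compared with each other in the same model. Loratadine minus clozapine called 8 of the 29 genes, 5 higher and 3 lower, while of all probe sets 6.68% were higher and 4.5% lower. All 5 higher ones belong to the sterol tail: Dhcr7 (0.45 ± 0.077), Tm7sf2 (0.36 ± 0.091), Ebp (0.28 ± 0.064), Msmo1 (0.25 ± 0.072) and Nsdhl (0.20 ± 0.052). The 3 lower ones were Abca1 (-0.43 ± 0.075), Abcg1 (-0.28 ± 0.052) and Scap (-0.23 ± 0.067). Leaving out 1 array ended the calls of Msmo1 (replicate 1 of either, clozapine replicate 2 or loratadine replicate 3), Nsdhl (clozapine replicate 3 or loratadine replicate 1), Tm7sf2 (loratadine replicate 2) and Scap (replicate 1 of either or clozapine replicate 3), with adjusted p up to 0.123 (limma). No mevalonate or squalene gene was called between the 2 compounds, and Hmgcs1 differed by 0.05 ± 0.051 (adjusted p = 0.552, limma). The 7 mevalonate genes still had a median of 0.12, with 5 positive and the highest at 0.21. The median was -0.01 for the 3 squalene genes and 0.22 for the 8 of the sterol tail.

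Dexamethasone minus clozapine called 7 genes, all lower, while of all probe sets 4.69% were higher and 10.6% lower. The largest was Insig1 (-0.69 ± 0.084), followed by Sc5d (-0.32 ± 0.069) and Ebp (-0.26 ± 0.064). Dexamethasone minus loratadine called 2 higher and 13 lower, while of all probe sets 19.8% were higher and 20.8% lower. Dhcr7 (-0.67 ± 0.077) and Insig1 (-0.63 ± 0.084) led the lower ones. Leaving out clozapine replicate 3 took the 7 calls of the first contrast to 4, Ebp among those lost (adjusted p = 0.0541, limma). After quantile normalisation the first contrast called 1 gene higher and 4 lower, and the second 5 higher and 7 lower. The median of the 29 genes went from -0.11 to -0.04 in the first and from -0.13 to -0.04 in the second.

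Dexamethasone minus VPA called 13 genes higher and 7 lower, while of all probe sets 14.1% were higher and 21.6% lower, so the share of lower ones is near that of all. Insig1 (0.79 ± 0.084), Cyp51 (0.70 ± 0.082), Msmo1 (0.54 ± 0.072) and Hmgcs1 (0.54 ± 0.051) were higher. Insig2 (-0.51 ± 0.062), Mylip (-0.42 ± 0.062) and Tm7sf2 (-0.40 ± 0.091) were lower. The 2 compounds called nearly as many of the 29 genes against DMSO, 16 with dexamethasone and 17 with VPA, but differed on 20 of them directly. In a model of the 6 arrays of dexamethasone and DMSO alone, 1 of the 16 dexamethasone calls passed, and it was the only probe set called; without dexamethasone replicate 3 in the model of all arrays, 15 members were called.

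**Figure D4:**
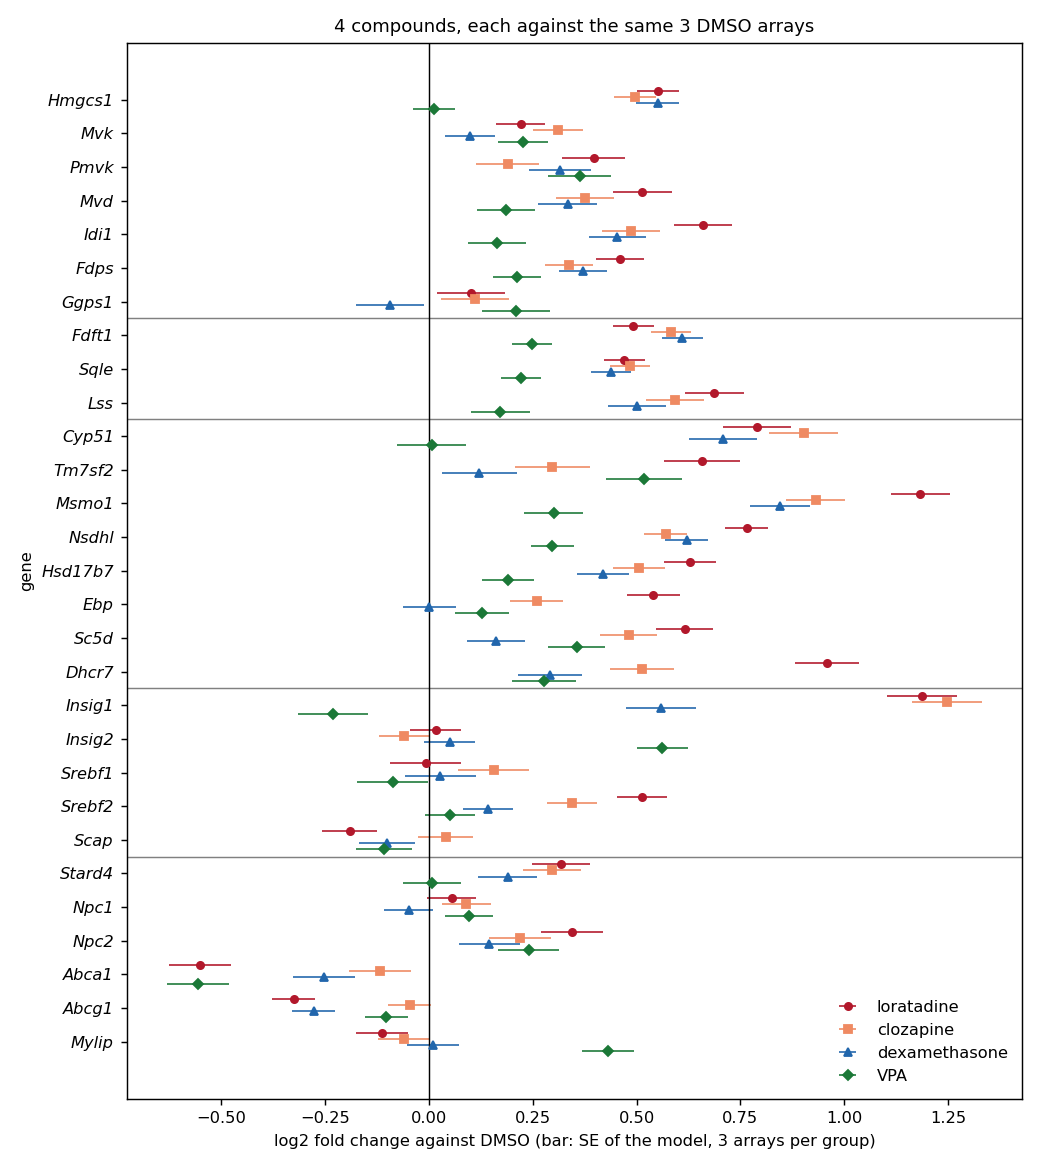
Log2 fold change against DMSO (horizontal axis, bars are the SE of the model with 3 arrays per group) of the 29 genes (vertical axis, grouped by step) with loratadine, clozapine, dexamethasone and VPA. VPA departs from the other 3 at Insig1, Insig2, Cyp51 and Hmgcs1, and Abca1 lies lowest with VPA and loratadine.

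Fluconazole, an antifungal that blocks the fungal counterpart of Cyp51, called none of the 29 genes and no probe set at all (0%). By unadjusted p under 0.05, 5 of the 29 genes passed, against 6.71% of all probe sets. The median of the 29 was 0.06, and all 18 synthesis genes were positive, between 0.02 and 0.25, against 9604 of all 21789 probe sets. All 18 were also positive with penicillamine, metoclopramide, ondansetron, VPA, clozapine and loratadine, against the same DMSO arrays. Cyp51 itself read 8.79, 8.90 and 8.81 with fluconazole, against 8.65, 8.56 and 8.85 in DMSO, with overlap and a fold change of 0.14 ± 0.082 (adjusted p = 0.785, limma). Fluconazole minus dexamethasone called 15 genes, all lower, while of all probe sets 9.32% were higher and 7.31% lower. Msmo1 (-0.72 ± 0.072), Cyp51 (-0.57 ± 0.082) and Hmgcs1 (-0.52 ± 0.051) led the 15. In a model of the 6 arrays of fluconazole and dexamethasone alone, no member and no probe set was called.

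Among the other compounds without a called member, chlorthalidone called 562 probe sets (2.58%) and dimethadione 26 (0.119%). Penicillamine, thalidomide, azacytidine, topiramate and methotrexate called no probe set (0%). By unadjusted p under 0.05 the members numbered 10 with penicillamine, 4 each with azacytidine and dimethadione, 3 each with chlorthalidone and topiramate, 2 with thalidomide and 1 with methotrexate. Of all probe sets 8.49%, 8.06%, 10.4%, 12.2%, 11.8%, 7.61% and 6.59% passed in that order. The 10 of 29 with penicillamine is above its share. With penicillamine 28 of the 29 fold changes were positive, as were 15827 of all 21789. The median was 0.11 against 0.05 over all probe sets. All 3 arrays lay above DMSO for 3 of the 29 genes, against 6.1% of all probe sets. Penicillamine replicate 2 stood highest of its group in every member but Sqle and Stard4. Hmgcs1 read 11.24, 11.53 and 11.28, and Cyp51 read 8.83, 9.21 and 8.82. Trend and robust settings in limma called none of the 29 genes in these compounds either.

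The neighbouring lists of other sterol genes and of fatty acid genes that SREBP also controls were read in the 5 compounds with most calls. Of 25 other sterol genes 18 were measured. Of these 6 rose with loratadine, 1 with clozapine and 3 with glybenclamide (10.9%, 1.1% and 6.79% of all probe sets). With VPA 5 rose and 1 fell, while of all probe sets 15.5% rose and 11% fell. None was called with dexamethasone, where 1.51% of all rose and 4.74% fell. The lipoprotein receptor genes Vldlr (0.50 ± 0.077) and Lrp8 (0.41 ± 0.068) led with loratadine, and Lrp8 (0.42 ± 0.068) was the only one with clozapine. With VPA the lysosomal lipase gene Lipa (0.94 ± 0.082) and the lipoprotein receptor gene Scarb1 (0.52 ± 0.073) led. With glybenclamide the leading ones were Erlin1 (0.42 ± 0.096), whose product helps degrade sterol-regulated proteins, and Lrp8 (0.35 ± 0.068).

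All 14 fatty acid genes were measured, and 8 rose with loratadine, 8 with glybenclamide, 5 with clozapine and 4 with dexamethasone, with none lower. Of all probe sets 10.9%, 6.79%, 1.1% and 1.51% rose in that order. With VPA 6 rose and 1 fell, against 15.5% and 11% of all. Scd1, a desaturase that makes monounsaturated fatty acids, rose by 0.91 ± 0.067 with clozapine, 0.82 ± 0.067 with loratadine, 0.59 ± 0.067 with dexamethasone and 0.50 ± 0.067 with glybenclamide. The next largest were its relative Scd2 (0.81 ± 0.057) with clozapine, the phosphatidate phosphatase gene Lpin1 (0.60 ± 0.067) with loratadine, and the desaturase gene Fads2 with dexamethasone (0.40 ± 0.049) and glybenclamide (0.44 ± 0.049). VPA was led by the acetyl-CoA synthetase gene Acss2 (0.84 ± 0.081) and the desaturase gene Fads1 (0.40 ± 0.063). The median of the 14 was 0.35 with loratadine, 0.24 with glybenclamide, 0.17 with clozapine, 0.12 with dexamethasone and 0.03 with VPA.

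For the labelled classes, the means of the 10 teratogens were tested against those of the 9 non-teratogens, 1 value per compound. No member and no probe set was called (0%). By unadjusted p under 0.05, 1 member and 4.38% of all probe sets passed. The member was Dhcr7, with a mean of 9.55 over teratogens and 9.77 over non-teratogens, a difference of -0.22 ± 0.096 (adjusted p = 0.976, limma).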

How the data were processed

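The values are log2 signals of Affymetrix probe sets, 1 per probe set and array, as deposited. Per the submitters' processing notes the authors made them with RMA, a method that corrects, normalises and summarises the probes of a set; the sources used here name no version, option or genome build. Array data have no read depth, and 3 arrays per group limit the precision.

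The table holds 35556 probe sets. The platform annotation pairs 21789 with a single gene symbol, 1621 with several and 12146 with none, and the single-symbol ones were tested. The deposited log2 values went without further normalisation into 1 linear model that gave each group its own mean (limma 3.58.1, R 4.3.3, lmFit and eBayes, 40 residual and 7.31 prior degrees of freedom). Contrasts were formed against DMSO and between 5 pairs of groups, with Benjamini-Hochberg adjustment within a contrast. Classes were compared with limma on 19 compound means. The test was checked on simulated data.

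The members, the gene lists and the tests were chosen with earlier results of these data known. Arrays are printed for the 3 largest called members of a compound (5 where over 8 were called) and for members called in at least 5 compounds. Genes of the neighbouring lists are named as the 2 largest called of a list. Other members are named to complete a step. Replicates are numbered in the order of the deposited samples. Alternatives were quantile normalisation, bright probe sets only, all probe sets, the 6 arrays of a contrast alone, trend and robust settings, a covariate for the letter b in the titles of 8 arrays or for the interquartile range, the other 18 compounds as reference, the mean of a gene's probe sets, and leaving out arrays.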

Additional observations from a re-analysis of the deposited data

Results flagged for a closer look

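In 4 genes, 1 compound was called higher and another lower than DMSO, and the difference between those compounds was tested in the same model. The compounds were chosen as the most extreme in each direction, so the adjusted p-values overstate what a pair fixed beforehand would give. Msmo1 differed by 1.48 ± 0.072 between loratadine and hydrochlorothiazide (adjusted p = 6.76e-21, limma), though the call with hydrochlorothiazide rests on its arrays of lowest interquartile range. Insig1 differed by 1.48 ± 0.084 between clozapine and VPA (adjusted p = 6.36e-19, limma). Scap differed by 0.53 ± 0.067 between paracetamol and loratadine (adjusted p = 2.01e-08, limma). Abcg1 differed by 0.52 ± 0.052 between the same compounds (adjusted p = 5.15e-11, limma). The cause of these differences was not tested.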

How the results depend on the processing

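Of the 171 calls of members in all contrasts, the same direction and side of the threshold held for 170 under trend and robust settings and for 170 with the mean of a gene's probe sets, for 165 with the letter b as a covariate, 163 over all probe sets, 158 after quantile normalisation, 143 with the interquartile range as a covariate and 91 in the 6 arrays of a contrast. All 171 held among bright probe sets. Leaving out 1 array kept 874 of 1026 values and ended 53 of the calls at least once. Members called moved by over 1.5 times as follows. Quantile normalisation gave 2 with hydrochlorothiazide and 12 with paracetamol. Bright probe sets alone gave 2 with hydrochlorothiazide, 2 with metoclopramide, 1 with fluconazole and 6 with ondansetron. The model of 6 arrays, with fewer samples, gave 7 with glybenclamide, 4 with paracetamol, 1 with dexamethasone and 0 with retinoic acid, hydrochlorothiazide, metoclopramide and ondansetron; it gave 7 for dexamethasone minus loratadine, 10 for dexamethasone minus VPA, and 0 for dexamethasone minus clozapine and fluconazole minus dexamethasone. The interquartile range covariate gave 0 with hydrochlorothiazide, 1 with ondansetron, 1 with sulfasalazine, 8 for dexamethasone minus loratadine and 2 for dexamethasone minus clozapine. Against the other 18 compounds, which asks another question, the counts were 22 with hydrochlorothiazide (all lower), 14 with topiramate, 10 with retinoic acid, 8 with chlorthalidone, 8 with azacytidine, 6 with sulfasalazine, 4 with penicillamine, glybenclamide, dimethadione and methotrexate, and 0 with ondansetron. Without the 3 arrays of lowest interquartile range, a choice made after seeing the data, hydrochlorothiazide gave 0.

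Direction turned against the other 18 compounds for Nsdhl with sulfasalazine (-0.0869) and retinoic acid (-0.079) and for Fdft1 with paracetamol (-0.0127), and with the interquartile range covariate for Sc5d in dexamethasone minus VPA (2e-04); the cause was not tested. Leaving out 1 array gave ranges of 22 to 24 with loratadine, 16 to 18 with clozapine, 13 to 17 with VPA, 13 to 18 with dexamethasone, 7 to 12 with glybenclamide, 3 to 5 with paracetamol, 1 to 6 with retinoic acid, 1 to 3 with sulfasalazine, 0 to 4 with ondansetron, 0 to 1 with metoclopramide, 0 to 6 with hydrochlorothiazide, and 4 to 10 for dexamethasone minus clozapine. The classes gave 0 under every setting run. No paired analysis was possible because the labels number no replicates.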
